A study of Homo sapiens with 3 samples.

Results

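IgG promoter peaks without a ZBTB11 peak were the promoter intervals of NCI-H1299 cells at which IgG, a non-specific antibody, gave a peak and the ZBTB11 antibody gave none. Peaks were called at an uncorrected p-value under 0.05. After correction for multiple tests, 68 of these 5210 intervals (1.31%) had a q-value of 0.05 or less. Members were the IgG peaks on chromosomes 1, 10 and 21 of hg38 that lay within 3 kb of a transcription start site (TSS) of GENCODE release 44 and shared no base with any ZBTB11 peak. There were 5210 members among 6703 IgG promoter peaks, and the remaining 1493 IgG promoter peaks, which shared 1 bp or more with a ZBTB11 peak, served as the comparison. These chromosomes carried 26630 of the 27877 peaks of the IgG list, beside 48395 ZBTB11 peaks, and both lists together held 376269 peaks. The IgG list held no peaks on the other autosomes or X, whereas the ZBTB11 list covered all chromosomes.

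The series asked where ZBTB11 is bound in NCI-H1299, a p53-null human lung cancer line that the labels give as lung adenocarcinoma, untreated and WT in every sample. Formaldehyde-fixed chromatin was sonicated and precipitated with an antibody against ZBTB11 or with IgG as the negative control, and Input DNA was taken with no antibody. Each of the 3 groups was 1 library. Peak lists of 2 libraries, ZBTB11 and IgG, were analysed, so no difference below had a replicate check and no p-value was computed between groups. Intervals are 95% intervals of counting error over peaks, which are not replicates of a condition.

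ZBTB11 is a nuclear protein with a BTB domain, which mediates contacts between proteins, and zinc fingers, which contact DNA. IgG has no chromatin target, so an IgG peak records where fragments pile up without a specific antibody; base composition and repeated sequence are known in general to affect such pile-ups. Many human promoters lie in CpG islands, stretches rich in G, C and CG dinucleotides, whereas sequence away from them is poor in CG.

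The first 3 sequences are of strong members and not of typical ones. Each is the 101 bp around a summit (the base with most fragments). All are read from the plus strand of hg38 with every CG dinucleotide in capitals. DNM3, EFHD2-AS1 and MAGI3 are the strongest members by p-value whose central 31 bases occurred once in the genome.
DNM3, chr1:171820008-171820108: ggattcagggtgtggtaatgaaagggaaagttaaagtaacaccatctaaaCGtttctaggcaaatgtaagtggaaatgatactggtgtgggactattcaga
EFHD2-AS1, chr1:15408859-15408959: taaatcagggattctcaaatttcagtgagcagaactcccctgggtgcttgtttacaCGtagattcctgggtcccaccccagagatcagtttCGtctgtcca
MAGI3, chr1:113389114-113389214: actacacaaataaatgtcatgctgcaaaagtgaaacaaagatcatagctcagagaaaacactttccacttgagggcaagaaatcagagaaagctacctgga

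The 3 strongest overlapping IgG promoter peaks with a summit that occurred once are printed in the same way for contrast.
MYOF, chr10:93482342-93482442: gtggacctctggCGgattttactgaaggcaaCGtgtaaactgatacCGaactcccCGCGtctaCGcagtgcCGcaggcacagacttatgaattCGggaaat
ENSG00000228549, chr1:16872329-16872429: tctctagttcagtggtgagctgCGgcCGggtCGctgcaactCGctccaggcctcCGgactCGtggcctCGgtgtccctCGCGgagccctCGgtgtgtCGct
ENSG00000238015, chr1:78664562-78664662: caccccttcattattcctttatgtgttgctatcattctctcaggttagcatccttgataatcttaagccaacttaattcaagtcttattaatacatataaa

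The members' windows held 1 CG in DNM3, 2 in EFHD2-AS1 and 0 in MAGI3. Of the overlapping windows, MYOF held 8, ENSG00000228549 held 11 and ENSG00000238015, 1660 bp upstream of a pseudogene, held 0. Over all windows of 101 bp the mean was 1.75 CG in members and 5.22 in overlapping peaks, and 34.9% of member windows against 16.7% of overlapping windows held none.

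Most IgG promoter peaks had no ZBTB11 counterpart. The share without one was 77.7% (76.7 to 78.7) near TSSs and 83.5% (83.0 to 84.0) among the 19927 IgG peaks beyond 3 kb, and 82.1% over all IgG peaks of these chromosomes. By chromosome the promoter share was 76.4% on chromosome 1 (3082 of 4036), 81.2% on chromosome 10 (1731 of 2133) and 74.3% on chromosome 21 (397 of 534).

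The share without a ZBTB11 peak changed along 3 properties of the IgG peak. With more fragments at the summit it went from 86.2% (82.1 to 89.6) at 4 fragments through 81.1% at 6 and 67.9% at 8 to 9, to 36.5% (29.6 to 44.1) at 10 or more, where 61 of 167 peaks were members. With GC content it went from 94.5% between 20 and 30% GC to 85.6% between 40 and 50%, 50.2% between 60 and 70%, and 27.3% (22.5 to 32.6) between 70 and 80%. With distance from the summit to the nearest TSS it rose from 57.0% (54.8 to 59.2) inside 500 bp to 79.7% between 500 and 1000 bp and 90.4% between 2000 and 2500 bp. These properties were not separated from each other in these shares, and width moved with them: 83.6% of the IgG promoter peaks of the smallest width, 263 bp, were members, against 59.2% of those above 500 bp. A longer interval can meet another interval more readily, and the part of width in the shares was not tested.

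**Figure D1:**
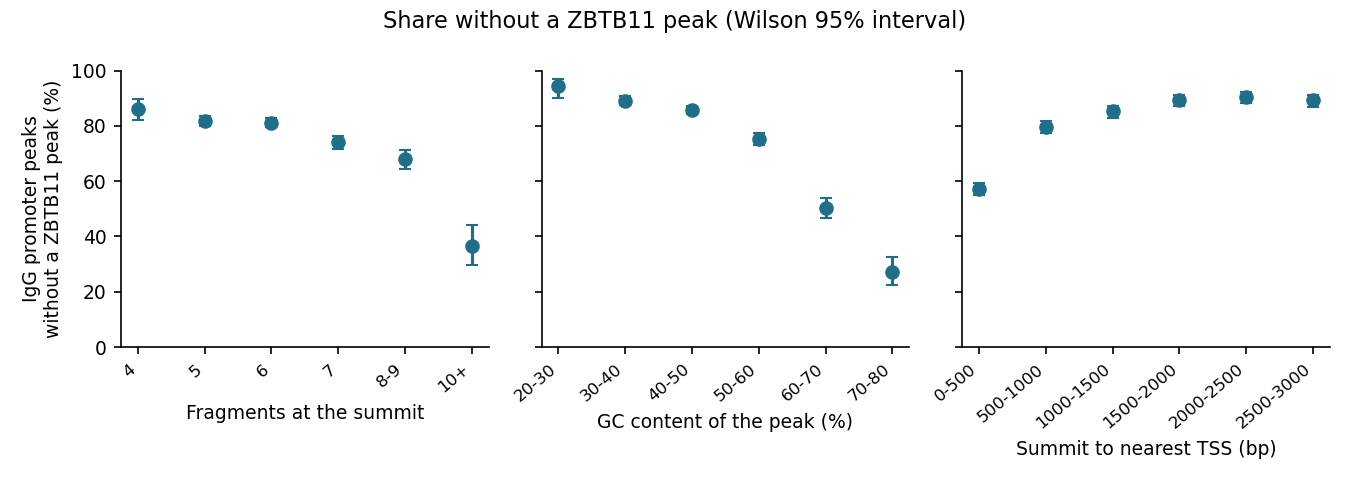
Share of IgG promoter peaks without a ZBTB11 peak (vertical axis, percent) by fragments at the summit, by GC content of the peak and by distance from the summit to the nearest TSS, with Wilson 95% intervals of counting error; classes under 20 peaks are not drawn. The share is 36.5% at 10 or more fragments, 27.3% at 70 to 80% GC and 57.0% inside 500 bp of a TSS.

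Members were poorer in G and C than the overlapping promoter peaks. Their median GC content was 45.5% (45.2 to 45.8), with quartiles of 39.0 and 51.7%, against 56.1% (54.9 to 57.0), with quartiles of 46.0 and 65.6%. The difference of medians was -10.6 percentage points (-11.6 to -9.36). The 75076250 bases within 3 kb of a TSS on these chromosomes had a GC content of 44.7%, less than 1 point from the members' median. The value for the zone is pooled over bases and not a median over intervals, so the measures are unlike. The direction was the same on each chromosome, with medians of 46.0 and 56.2% on chromosome 1, 44.9 and 55.3% on chromosome 10, and 44.9 and 56.7% on chromosome 21.

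CG dinucleotides were also scarcer in members. The ratio of observed to expected CG dinucleotides had a median of 0.236 (0.230 to 0.242) in members and 0.571 (0.537 to 0.601) in overlapping peaks. Peaks with island composition, taken here as at least 50% GC and a ratio of at least 0.6 over the interval, made up 5.93% of members (309) and 43.9% of overlapping peaks (656). The 309 island-like members were a small set with their own profile. Of them, 56.3% had the summit within 500 bp of a TSS and 73.5% were assigned to protein-coding genes, against 83.7 and 77.1% of the island-like overlapping peaks. In 30.1% (25.3 to 35.4) of island-like members, but in 12.5% (10.2 to 15.3) of island-like overlapping peaks, the central 31 bases occurred more than once in the genome.

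The GC difference narrowed with distance from the TSS. Within 500 bp the median was 49.3% (48.3 to 50.2) in 1103 members and 62.3% (61.2 to 63.1) in 830 overlapping peaks. From 500 to 1500 bp it was 45.1% against 49.7%. Beyond 1500 bp it was 44.6% (44.1 to 45.0) in 2305 members and 45.3% (43.6 to 46.8) in 271 overlapping peaks, and there the intervals overlapped. Among IgG peaks beyond 3 kb the order was the other way, with a median of 41.8% (41.5 to 41.8) in those without and 39.8% (39.6 to 39.9) in those with a ZBTB11 peak.

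**Figure D2:**
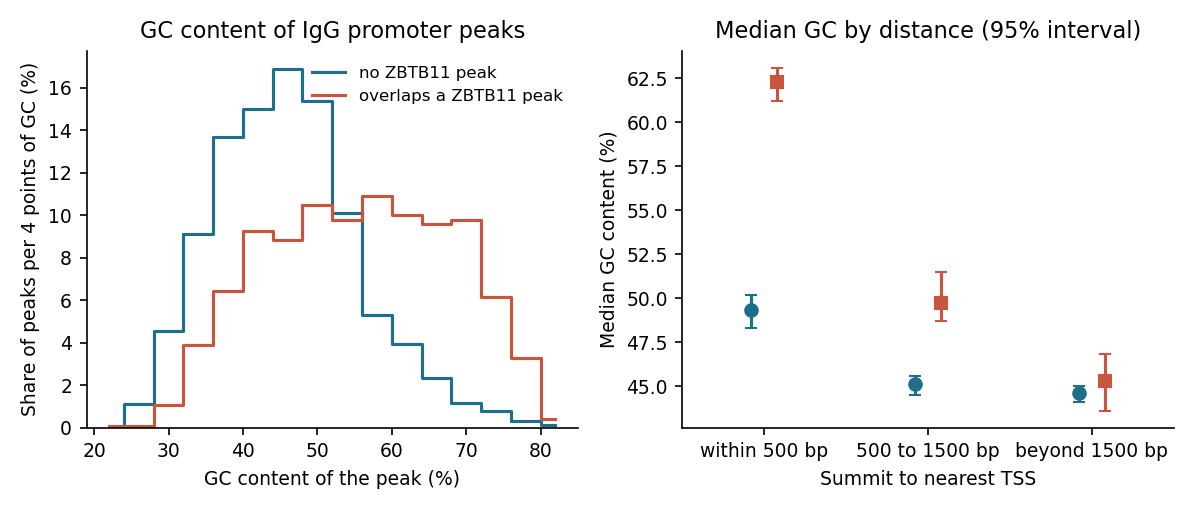
Left, share of peaks (percent) per 4 points of GC content for IgG promoter peaks without a ZBTB11 peak (blue) and with one (red). Right, median GC content with its 95% interval in 3 classes of distance from the summit to the nearest TSS; the vertical axis does not start at 0. The medians are 49.3 and 62.3% within 500 bp and 44.6 and 45.3% beyond 1500 bp.

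Members were spread along the promoter zone, whereas overlapping peaks were gathered at the TSS. The summit lay within 500 bp of a TSS in 21.2% (20.1 to 22.3) of members and 55.6% (53.1 to 58.1) of overlapping peaks, a difference of -34.4 points (-37.2 to -31.6). The interval itself covered a TSS in 423 members (8.12%) and 455 overlapping peaks (30.5%). The median distance from summit to TSS was 1314 bp (1269 to 1356) against 415 bp (380 to 448).

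The members' distances were close to those of the bases available. In steps of 500 bp from the TSS outward to 3000 bp, 21.1, 18.7, 16.0, 14.3, 14.2 and 12.2% of members lay in each step. The zone's bases lay in the same steps at 22.0, 18.1, 16.5, 15.4, 14.4 and 13.5%. A further 181 members (3.47%) had an edge within 3 kb and the summit beyond. Summits upstream of the TSS made up 47.6% (46.2 to 48.9) of members and 42.6% (40.1 to 45.1) of overlapping peaks.

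**Figure D3:**
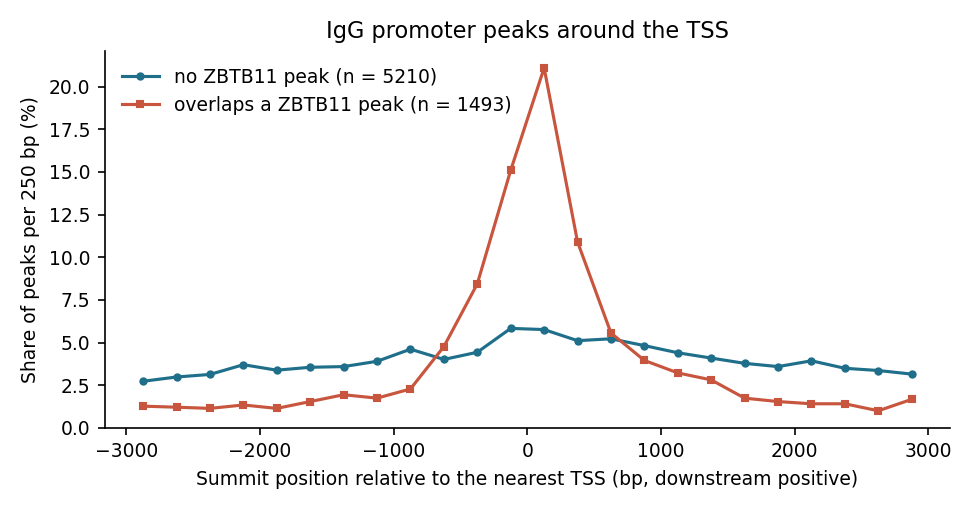
Share of peaks (percent) per 250 bp of position of the summit relative to the nearest TSS, in bp with downstream positive, for IgG promoter peaks without (blue, n = 5210) and with (red, n = 1493) a ZBTB11 peak. The red line rises around the TSS, where 55.6% of its peaks lie within 500 bp, while the blue line, with 21.2% there, stays nearly level.

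By annotation of the summit base, 64.0% (62.7 to 65.3) of members were intronic, against 49.8% (47.3 to 52.4) of overlapping peaks. The 5′ UTR held 1.73% of members (90) and 12% of overlapping peaks (179). Non-coding exons held 8.91 and 11.0%, coding sequence 4.38 and 5.49%, and 3′ UTRs 2.86 and 2.01%. Intergenic summits, here those within reach of a TSS but outside every gene, made up 18.2 and 19.7%, and the interval of that difference included 0 (-3.86 to 0.680).

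Gene types differed less than position. The nearest TSS belonged to a protein-coding gene in 61.9% (60.6 to 63.2) of members and 68.4% (66.0 to 70.7) of overlapping peaks, a difference of -6.49 points (-9.15 to -3.75). Pseudogenes, copies of genes that mostly encode no working product, were nearest to 12.9% (12 to 13.8) of members and 7.70% (6.46 to 9.17) of overlapping peaks. Long non-coding RNA genes were nearest to 18.3 and 16.9% and small RNA genes to 6.22 and 5.63%, and for these 2 types the interval of the difference included 0. The protein-coding share was lower in members on chromosomes 1 (63.7 against 70.5%) and 10 (60.8 against 69.2%), but not on chromosome 21 (52.6 against 51.1%). The pseudogene share was higher in members on all 3 chromosomes. Among peaks of a q-value of 0.05 or less (68 and 82), the protein-coding difference turned to 4.41 points (-11.4 to 19.9).

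**Figure D4:**
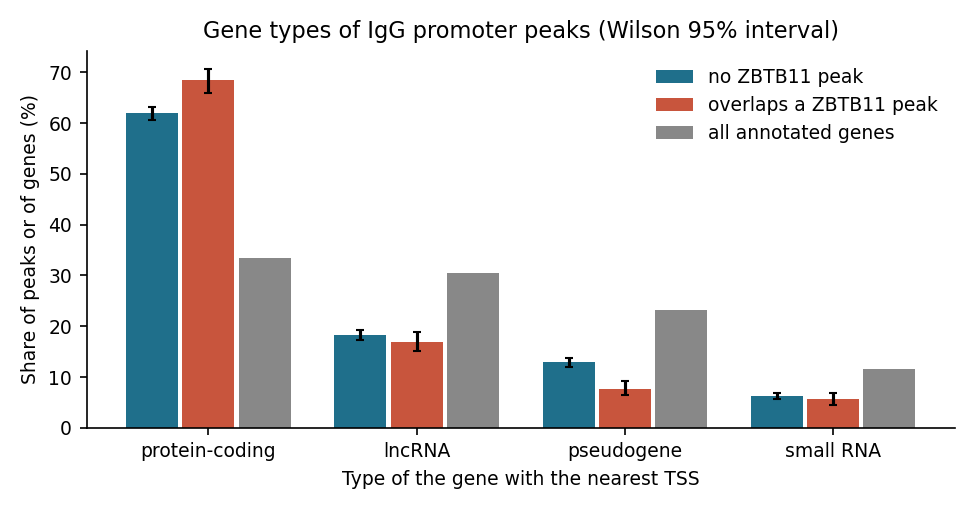
Share of IgG promoter peaks (percent) without (blue) and with (red) a ZBTB11 peak by the type of the gene with the nearest TSS, with Wilson 95% intervals, beside the share of each type among all 8985 annotated genes of the 3 chromosomes (grey). Protein-coding genes take 61.9 and 68.4% of the peaks and 33.5% of the genes. Among genes with a member, protein-coding genes had a median of 6 distinct starts, against 2 over all types. The share of starts by type was not computed.

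GC content was also compared within gene types. Near pseudogenes the median GC content was 43.6% (42.6 to 44.4) in members and 44.8% (43.6 to 47.8) in overlapping peaks. Near protein-coding genes it was 46.4% (45.9 to 46.8) and 58.2% (57.3 to 59.5), and near long non-coding RNA genes 45.4 and 54.2%.

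Most members were weak. Fragments at the summit and the expected background were recovered for each peak, as whole fragment numbers, from its fold and p-value. Members had 4 to 59 fragments with a median of 6, and overlapping peaks 4 to 69 with a median of 6. At most 6 fragments were found in 71.5% (70.3 to 72.7) of members and 55.6% (53.1 to 58.1) of overlapping peaks. At least 8 were found in 10.5% (9.68 to 11.3) and 22.4% (20.4 to 24.6), a difference of -12 points (-14.3 to -9.74).

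Fold enrichment and p-values differed by small amounts on the caller's own scales. The median fold enrichment over background was 2.49 (2.46 to 2.49) in members and 2.56 (2.53 to 2.61) in overlapping peaks, and the largest was 4.31 and 8.63. The median −log10 p was 2.60 against 2.79. After correction for multiple tests, a q-value of 0.05 or less was reached by 68 members (1.31%, 1.03 to 1.65) and 82 overlapping peaks (5.49%, 4.45 to 6.77), against 4.40% of all IgG peaks on these chromosomes. Median width was 300 bp (295 to 305) against 359 bp (347 to 367), and 38.7% of members had the smallest width.

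Peaks of at least 8 fragments were less frequent in members at each distance, with 12 against 26.0% within 500 bp of a TSS, 10.9 against 18.1% from 500 to 1500 bp and 9.46 against 17.7% beyond. Median GC was lower in members at equal fragments too, for example 44.9% against 51.6% at 5 fragments, 45.2% against 54.3% at 6 and 46.4% against 58.2% at 7.

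The 12 members with the smallest p-values fell into 4 in ribosomal DNA and 8 elsewhere. The short arm of chromosome 21 carries arrays of ribosomal DNA, which encode the 18S, 5.8S and 28S RNAs in many near-identical copies. It held the 3 strongest members and 4 of these 12. The peak 511 bp downstream of the start of RNA5-8SN2, a 5.8S gene, had 59 fragments over a background of 18.5, a fold of 3.08. RNA5-8SN3 had members of 46 fragments over 15.9 and 38 over 16.5, and a member near ENSG00000277671, annotated as a miscellaneous RNA, had 41 over 17.1.

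Between positions 8212405 and 8443120 there were 7 members and 1 overlapping peak. These 7 had 26 to 59 fragments over backgrounds of 15.3 to 18.8, folds of 1.66 to 3.08 and GC contents of 63.0 to 79.5%. The central 31 bases of the 4 named ribosomal members occurred 2 to 8 times in the genome. Of the 18 members in all with at least 20 fragments, 16 were on chromosome 21. Reads from near-identical copies cannot be assigned to a copy, so the counts belong to the sequence and not to the named gene. The largest count in a member whose central 31 bases occurred once was 14.

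Among the 12 members with the smallest p-values, those away from the ribosomal DNA had 10 to 12 fragments. Larger counts at larger p-values also occurred outside the short arm of chromosome 21, such as 23 fragments over 9.07 near RNA5S14. DNM3, a dynamin that cuts membrane vesicles free, had 10 fragments over 1.55 in an intron, 2171 bp downstream of a start, and the members' highest fold of 4.31. RNU6-885P, a copy of the U6 spliceosomal RNA gene, had 10 over 1.58 and lay 1735 bp from the summit, whose central 31 bases occurred 3 times in the genome. ENSG00000231181, a processed pseudogene, had 11 over 1.97, and the central 31 bases of that peak occurred 2792 times in the genome.

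EFHD2-AS1, a long non-coding RNA gene, had 12 fragments over 2.37 in an intron, 524 bp downstream of a start. MAGI3, a scaffold protein of cell junctions, had 11 over 2.03 at 1351 bp upstream. GPR161, a receptor of the primary cilium, had 10 over 1.68, and its nearest ZBTB11 peak was 14156 bp away.

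SLC35A3, a Golgi transporter of nucleotide sugars, and DDX21, a nucleolar RNA helicase, each had 12 fragments over 2.45, a fold of 3.77. The central 31 bases occurred 82 times in the genome at the SLC35A3 member and 1 time at the DDX21 member. Fragments at the SLC35A3 member may come from other copies, and placement at the full read length was not tested. Both members lay near strong ZBTB11 peaks without touching them. The nearest ZBTB11 peak had 442 fragments at 761 bp from the SLC35A3 member and 194 fragments at 1104 bp from the DDX21 member.

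The 3 strongest overlapping peaks had more fragments than the 8 members named above outside ribosomal DNA, at backgrounds of 1.55 to 3.60. These were ENSG00000278791, annotated as a miRNA, with 32 over 3.60, ENSG00000264063, also annotated as a miRNA, with 26 over 2.68, and DDX11L2, a long non-coding RNA gene near the end of chromosome 1, with 21 over 1.55. In all 3 the central 31 bases occurred 3 to 8 times in the genome.

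**Figure D5:**
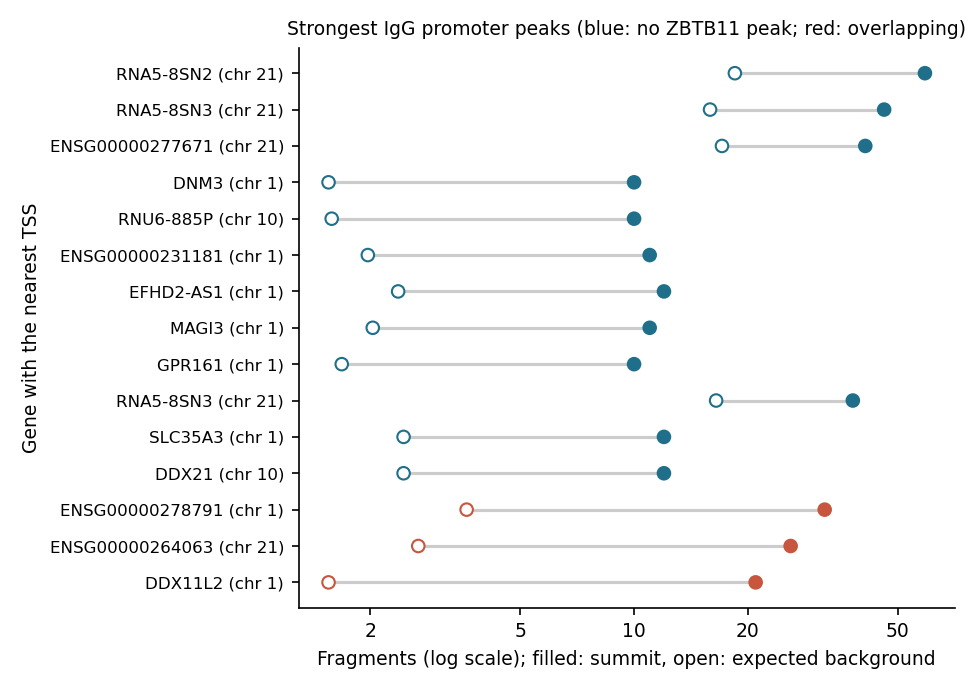
Fragments at the summit (filled) and expected background (open), on a log scale, for the 12 IgG promoter peaks without a ZBTB11 peak (blue) and the 3 with one (red) that have the smallest p-values, named by the gene with the nearest TSS. The ribosomal members on chromosome 21 reach 38 to 59 fragments over backgrounds of 15.9 to 18.5, and the other members 10 to 12 fragments.

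Summits in repeated sequence were found in both groups. The central 31 bases occurred more than once in the genome in 18.4% (17.4 to 19.5) of members and 16.4% (14.6 to 18.4) of overlapping peaks, and the interval of the difference included 0 (-0.183 to 4.13). At least 100 copies were found in 4.97 and 2.81%. Among peaks of a q-value of 0.05 or less the difference in repeated summits turned to -16.4 points (-31.0 to -0.617). Among IgG peaks beyond 3 kb the shares with more than 1 copy were 21.2% without and 49.1% with a ZBTB11 peak.

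Genes with the most members had many annotated starts. UBR4, a ubiquitin ligase of the N-degron pathway, had 13 members of 5 to 9 fragments and no overlapping peak across 17 starts. ANK3, which encodes ankyrin-G, had 12 members and 3 overlapping peaks across 31 starts. ARHGAP22, a GTPase-activating protein, had 11 members and 3 overlapping peaks. KCNMA1, a potassium channel, and RERE, a transcriptional corepressor, had 11 members and 1 overlapping peak each, across 57 and 21 starts. All 5 genes also had a ZBTB11 peak near a start. By nearest TSS, 3211 genes had a member, 2111 of them just 1, and 2477 of the 3759 genes with an IgG promoter peak had members only.

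Lack of overlap did not mean a gene without ZBTB11 peaks. The gene of the nearest TSS had a ZBTB11 peak within 3 kb of one of its starts in 86.8% (85.8 to 87.7) of members, against 71.3% of all 8985 genes. That share counts a gene again for each of its members. Counted by gene, 81.9% (80.7 to 83.1) of the 3874 genes with a member within 3 kb of a start had one, and among protein-coding genes 93.9% of those with a member, against 87.3% of all. A ZBTB11 peak of a q-value of 0.05 or less was near a start of the gene in 50.1% of members and 68.6% of overlapping peaks; by gene it was 42.4% of genes with a member, against 28.6% of all genes. Among the 3171 genes with both an IgG promoter peak and a ZBTB11 peak near a start, 1890 (59.6%) had IgG peaks that were members only. Of these 1890 genes, 936 (49.5%) were protein-coding and 785 (41.5%) had a ZBTB11 peak of a q-value of 0.05 or less, against 41.0 and 40.1% of all 6410 genes with a ZBTB11 peak near a start. Genes with a member within 3 kb had a median of 2 distinct starts, and those with no IgG promoter peak a median of 1, so the number of starts moved with these shares and its part was not tested.

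The nearest ZBTB11 peak was a median of 1647 bp (1593 to 1721) from the edge of a member. It lay within 500 bp in 1061 members (20.4%), within 1 kb in 34.4% and within 3 kb in 71.5%. The neighbours were weak, with a median of 5 fragments. In 314 members (6.03%) a ZBTB11 peak of a q-value of 0.05 or less lay within 500 bp. Those 314 had a median GC content of 49.4%, and 38.9% had the summit within 500 bp of a TSS.

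The limit between overlap and no overlap was narrow for some peaks. A member of 5 fragments near the non-coding gene ENSG00000279501 abutted a ZBTB11 peak of 6 fragments with a gap of 0 bp, and the member of ARPC5, a subunit of the actin-branching complex, had 8 fragments at 1 bp from a ZBTB11 peak of 50. On the other side, 37 IgG promoter peaks overlapped by less than 20 bp, and the smallest overlap, near ENSG00000284721 and GORAB, was 1 bp. At the distance limit, the farthest members, near FLG-AS1 and BCAR3, lay at 3000 bp and the nearest peaks outside, near RABGGTB and CTRC, at 3001 bp.

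The overlapping peaks were not uniform, and the weaker part of them was closer to the members. Where the ZBTB11 peak had a q-value of 0.05 or less (736 peaks), the median GC content was 61.9%, 77.6% of summits lay within 500 bp of a TSS and 75.5% of peaks were assigned to protein-coding genes. Where it did not (757 peaks), these values were 48.7, 34.2 and 61.4%, and in members 45.5, 21.2 and 61.9%.

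The letters CCGGAAG and CAGGAAG, which the study names as a consensus for ZBTB11, contain the GGAA core of ETS factors. They were searched on both strands of the 101 bp at each summit. Either was found in 183 members (3.51%, 3.05 to 4.05) and 89 overlapping peaks (5.96%, 4.87 to 7.28). The share in the 30221 windows of the same length at annotated starts was 8.42%. On chromosome 21 the order was the other way by a narrow margin (4.53 against 4.38%), as it was among peaks of a q-value of 0.05 or less, where the difference was 3.44 points (-3.56 to 11.9). CCGGAAG alone was found in 22 members (0.422%) and 27 overlapping peaks (1.81%), and in 3.96% of the windows at starts. Of these 22 members, 3 had the summit within 500 bp of a TSS and 17 were assigned to protein-coding genes. Over all members these shares were 21.2 and 61.9%, and 22 peaks are too few to tell the counts from them. Matches near TMEM50B and C21orf58, from the members with the smallest p-values among the 22, are shown from the plus strand in capitals.
TMEM50B, chr21:33478620-33478720: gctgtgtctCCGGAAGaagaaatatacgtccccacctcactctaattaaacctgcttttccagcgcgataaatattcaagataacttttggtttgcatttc
C21orf58, chr21:46316474-46316574: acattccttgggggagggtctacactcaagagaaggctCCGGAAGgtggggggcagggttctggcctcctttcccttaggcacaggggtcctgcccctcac

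These matches are letters in a window and not sites. TMEM50B and C21orf58 had 9 fragments each and lay in introns, 619 and 1682 bp downstream of a start. Their central 31 bases occurred once in the genome.

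The 10 gene lists were described by how many of their genes had a member, or an overlapping IgG peak, within 3 kb of a start, beside 43.1% of all genes with a member and 19.8% with an overlapping peak. By type these shares were 60.2 and 33.7% of protein-coding genes and 33.1 and 13.3% of small RNA genes. Among genes expressed in most cells, 31 of 39 abundantly expressed housekeeping genes had a member and 17 an overlapping peak. The strongest members were those of TPM3, a tropomyosin, with 9 fragments over 2.21 at 41 bp from a start, and those near EIF4G3 and HNRNPR with 8 each, whose central 31 bases occurred 825 and 51 times in the genome. Of 6 cytosolic ribosomal protein genes, RPL22, RPS24 and RPL11 had members of 10, 8 and 8 fragments within 3 kb, and 3 had an overlapping peak. The member of RPS24 lay nearer to a start of POLR3A, and its central 31 bases occurred 101 times. Of 13 histone genes that are expressed in S phase, 11 had a member and 6 an overlapping peak. H2AC20, H2AC21 and H2BC21 shared a member of 8 fragments, which lay nearest to a start of H2BC21.

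In small RNA arrays, more genes had an overlapping peak than a member. Of 17 genes for 5S ribosomal RNA, 6 had a member and 14 an overlapping peak, and RNA5S13, RNA5S14 and RNA5S15 shared 1 member of 23 fragments over 9.07. Of 28 genes for U1, the RNA that recognises 5′ splice sites, 8 had a member and 15 an overlapping peak. RNU1-1 had 11 fragments over 2.68. Genes within these arrays are near-identical, and reads could be placed on any copy.

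Tissue-restricted clusters had few members, and the keratin-associated and epidermal clusters no overlapping peak. The gene lists were not matched for the number of starts per gene, and its part in these shares was not tested. Of 49 keratin-associated protein genes of hair, 7 had a member and 0 an overlapping peak, which with Wilson's method allows a share of up to 7.27%. Of 30 late cornified envelope and small proline-rich genes of the epidermis, 4 had a member and 0 an overlapping peak. Of 64 olfactory receptor genes, 11 had a member and 4 an overlapping peak, and OR10Z1 had 8 fragments over 1.55. Among the other lists, 10 of 14 NBPF genes, a duplicated family of chromosome 1, had a member. The members of NBPF11, NBPF8 and NBPF9 had 7 fragments each, and their central 31 bases occurred 6, 3 and 4 times in the genome. Of 8 genes for ETS factors and GABP subunits, 4 had a member, with 7 fragments in ETS2 and ETV3L. The member within 3 kb of a start of GABPB2 had 8 fragments and lay nearer to a start of CDC42SE1.

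ATPAF1, an assembly factor of the mitochondrial ATP synthase, was the gene on these chromosomes that the study also tested by quantitative PCR of precipitated DNA. It had 3 members of 5 fragments each over backgrounds of 1.55, 1.68 and 1.87. Their summits lay 2477 bp downstream, 1951 bp upstream and 55 bp downstream of a start. The nearest ZBTB11 peak to the member at 55 bp was 2070 bp away and had 307 fragments.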

How the data were processed

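Chromatin of NCI-H1299 was precipitated with ZBTB11 antibody or IgG (1 library each); Input is not analysed here. BWA was the authors' aligner for the paired-end reads (build hg38), and MACS their peak caller, run on each library separately at a p-value under 0.05; the release of MACS is stated as an early version, while the deposited layout is one that later releases write. The role of Input in the calling is not given in the sources used here. The files as deposited hold a score, the fold enrichment ratio, −log10 p and −log10 q per peak, and no read totals, so depth is unknown. The deposited IgG list had peaks on chromosomes 1, 10 and 21, on Y and on unplaced or unlocalised scaffolds only. It had none on the other autosomes or X, so these could not be analysed. Whether that list is complete is not known.

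Whole fragments and background at each summit were solved from fold and p; 100% of peaks of both lists on chromosomes 1, 10 and 21 were recovered within 0.001, and the solver was tested on simulated data (100% of 3984 IgG and 3991 ZBTB11 peaks recovered). TSSs were 30221 distinct starts of GENCODE 44. Genes were those of the nearest TSS to the summit, except in the gene lists, where a start within 3 kb of the peak was enough. Wilson, Newcombe and order-statistic 95% intervals were computed in Python 3.11.15 with scipy 1.17.1. They cover counting error only. Copy number is the count of exact matches of the 31 bases at the summit on both strands of hg38 without alternate contigs. Named genes were the 12 strongest members by p, the 5 genes with most members, the 3 strongest overlapping peaks, ATPAF1 and up to 3 per gene list; the sequences and the peaks at the limits were added after the values were seen. Members, lists and rules were chosen with earlier results of these data known. Some members and sequences are not reported here.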

Additional observations from a re-analysis of the deposited data

Results flagged for a closer look

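Outside the comparisons, the IgG list held 1165 peaks on sequences other than chromosomes 1 to 22, X and Y, and 617 of them (53.0%, Wilson 95% interval 50.1 to 55.8) overlapped no ZBTB11 peak. They were looked at because these sequences enter no value of the report other than the totals of the peak lists. The share was lower than the 82.1% over all IgG peaks of chromosomes 1, 10 and 21, both taken at any distance from a TSS.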

How the results depend on the processing

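Across 8 results there were 67 values under alternatives, of which 19 moved by less than their interval, 46 moved further and 2 reversed a difference whose interval had excluded 0; of those that moved further, 2 values of the repeated-summit difference, whose interval had included 0, also changed sign; 15 of the values were chosen after seeing the data. Differences below are in percentage points, members minus overlapping peaks. With 1 kb in place of 3 kb the share without a ZBTB11 peak was 67.6%. The differences were -12.7 in GC, -9.79 in protein-coding genes and -26.5 in summits within 500 bp. The share of members assigned to a gene with ZBTB11 peaks near its starts, called the gene share below, was 71.5%. This share counts a gene again for each of its members. Shares of all genes were not computed under these alternatives, so whether the gene share moved for members alone was not tested. With starts of protein-coding genes only, the share was 75.5%, the differences -11.8 in GC, -39.0 in summits and 6.05 in repeated summits, and the gene share 96.4%. Requiring overlap of 50% of the IgG peak gave 85.6%, -13.2 in GC, -38.6 in summits, -3.87 in the consensus and a gene share of 88.0%. Counting a ZBTB11 peak within 500 bp as overlapping gave 61.9%, -5.79 in GC, -23.9 in summits, -9.07 in peaks of at least 8 fragments and a gene share of 83.6%.

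With IgG peaks of a p-value of 0.001 or less the share was 69.4%, and the differences were -11.6 in GC, -2.93 in protein-coding genes, -39.6 in summits, -17.3 in peaks of at least 8 fragments, -1.14 in the consensus and -1.73 (-6.12 to 2.42, from 2.04) in repeated summits, with a gene share of 89.1%. With ZBTB11 peaks of a p-value of 0.001 or less the share was 86.0%, the differences -15.0 in GC, -12.7 in protein-coding genes, -50.3 in summits, -17.2 in peaks of at least 8 fragments and 5.57 in repeated summits, and the gene share 61.7%. With IgG peaks of a q-value of 0.05 or less, 68 members and 82 overlapping peaks remained, and the share was 45.3%. The protein-coding difference, 4.41 (-11.4 to 19.9), and the consensus difference, 3.44 (-3.56 to 11.9), turned direction with intervals that include 0. That in repeated summits turned from 2.04 to -16.4 (-31.0 to -0.617). The difference in summits was -37.9, and the gene share was 92.6%. The difference in peaks of at least 8 fragments was 0, an outcome fixed by the filter. At the lowest background, 1.55, a peak of 8 fragments did not reach this q-value, so all peaks kept had more. The cause of the other changes was not tested beyond the fewer peaks.

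Within classes of equal fragments the GC difference was -8.85 and that in repeated summits 4.65. With summits of 1 copy the differences were -12.4 in GC, -10.1 in protein-coding genes, -38.4 in summits and -9.30 in peaks of at least 8 fragments. The GC and summit differences kept their direction under every alternative run. The planned share of summits in soft-masked sequence was not run, since the reference used holds no masking; the share of repeated summits stands in its place. No paired analysis was possible because the groups are single libraries, and so no library could be left out.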
